A study of Drosophila melanogaster with 9 samples.

Results

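The wild-type transcriptome of the early Drosophila melanogaster embryo was described from 3 RNA sequencing libraries of the Oregon-R strain, labelled OreR, which are 3 of the 9 libraries of a series with 3 genotypes. The OreR libraries were chosen by their genotype label, and the other 6 libraries, of embryos from obe mutant mothers, were not compared with them. Each library came from about 50 embryos, picked by hand between the end of stage 5 and the start of stage 6 from collections aged 3 h, and the labels give OreR no mutant allele and no treatment. All 15334 genes of the deposited matrix were examined, and 8232 of them, 53.7%, were present, meaning that the 3 libraries averaged 10 normalized counts or more. A normalized count is a gene's read count divided by the size factor of its library. RNA was prepared 3 times, per the labels, which do not state separate egg collections, so the spread between replicates may be technical.

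At this stage the embryo passes from maternal to zygotic control. Development begins on RNA and protein that the mother stored in the egg, and the nuclei divide quickly in a shared cytoplasm. The zygotic genome is then activated, maternal RNA is degraded, membranes enclose the nuclei to form the cellular blastoderm, and gastrulation begins. Over the same hours the maternal gradients are read by gap, pair-rule, segment polarity and dorsal-ventral genes, while the pole cells, which form the germ line, stay apart at the posterior end.

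Recovered reads totalled 71917538, 101171295 and 69120633 in replicates 1, 2 and 3, and 10416, 10722 and 10130 genes had at least 1 read. One read was worth 1.18, 0.846 and 1.19 normalized counts, so a gene at 10 rested on 8.38 to 11.8 reads. A gene with 0 reads could have had a level of up to 3.53, 2.54 or 3.58 normalized counts, the limit set by 3 reads, which covers counting error only. The log2 levels of the libraries correlated at 0.984 to 0.990 across present genes, which are not independent replicates. To look for a library present more than once, a chi-square statistic of each pair of libraries was computed over these genes and gave 76.2 to 178 per degree of freedom, above counting noise. In whole embryos, fewer cells of a type and less RNA per cell cannot be told apart.

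The genes with the most normalized counts had varied roles. Ef1alpha48D, the elongation factor that brings aminoacyl-tRNA to the ribosome, led with 1113016, 1014547 and 1072609.9 normalized counts in replicates 1 to 3, a mean of 1066724 ± 49498 (SD, n = 3). Ef2b, which encodes the elongation factor that moves the ribosome along the RNA, stood at 608463, 551503 and 547084. The constitutive chaperone gene Hsc70-4 followed at 445475, 423303 and 431659, and the cytoplasmic actin gene Act5C at 421046, 396212 and 385706. The ranges of these 4 genes did not overlap, so their order was the same in every library. The next 6 genes lay closer together, with means from 346251 for CycB, the mitotic cyclin stored in the egg, to 284896 for alphaTub84B, an alpha-tubulin. Between them came Df31, a chromatin protein, me31B, an RNA helicase that represses stored messages, betaTub56D, a beta-tubulin, and RpS3A, a ribosomal protein. Each of these 6 genes overlapped its neighbours in the order, so neighbours did not differ beyond their spread. Just below came smg, the Smaug repressor that directs maternal RNA decay, at 240316, 293916 and 267996, and tral, a partner of me31B, at 210109, 267846 and 257791.

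The 10 most abundant genes took 5.13% ± 0.197 (SD, n = 3) of the normalized counts and the top 100 took 19.6% ± 0.662. Long RNAs give more fragments, so orders by normalized count depend on length, and levels are also given per kilobase of exon where genes are compared. On that scale RpL41, which encodes the smallest ribosomal protein, led with a mean of 608447 normalized counts per kb, ahead of Ef1alpha48D at 432924 and RpS3A at 218562. Ribosomal protein genes made up 8 of the 30 most abundant genes by count and 21 of the 30 per kb, and 14 genes were in both sets. The gene lola, a long transcription factor locus with many isoforms, ranked 13th by count and 737th per kb at 9752. Exon lengths join all isoforms, so long multi-isoform genes come out low per kb.

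All 28 reference genes were present, with a median of 70109.6 normalized counts against 3292 for all present genes. Their median coefficient of variation, the SD over the mean of the 3 libraries, was 6.29%, against 10.1% for all present genes and 7.75% for genes at 10000 to 100000. Without replicate 1 the list's value was 3.75%. RpL32, a ribosomal protein gene often used as a reference, stood at 78416, 65739 and 70495, a spread of 1.19-fold. Tbp, the TATA-binding protein gene, was at 5049, 5131 and 5146 and had the lowest coefficient of variation of the list, 1.02%. Of the glycolytic enzymes, Gapdh1 at 18225, 18159.6 and 17536 varied less than Gapdh2 at 25767, 19773 and 19944 and Pgk at 7835, 6575 and 5987. Gapdh2 and Pgk were highest in replicate 1, as were 22 of the 28 genes, while 41.3% of all present genes were highest there. The lowest coefficients of variation among genes with a mean of at least 1000 were 0.0524% for Rab4, a small GTPase of endosome recycling, 0.358% for Ts, thymidylate synthase, and 0.392% for Lrr47. The 3 values of Rab4 were 4987, 4982 and 4986, and counting error alone gives a median of 1.37% at 3000 to 10000.

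**Figure D1:**
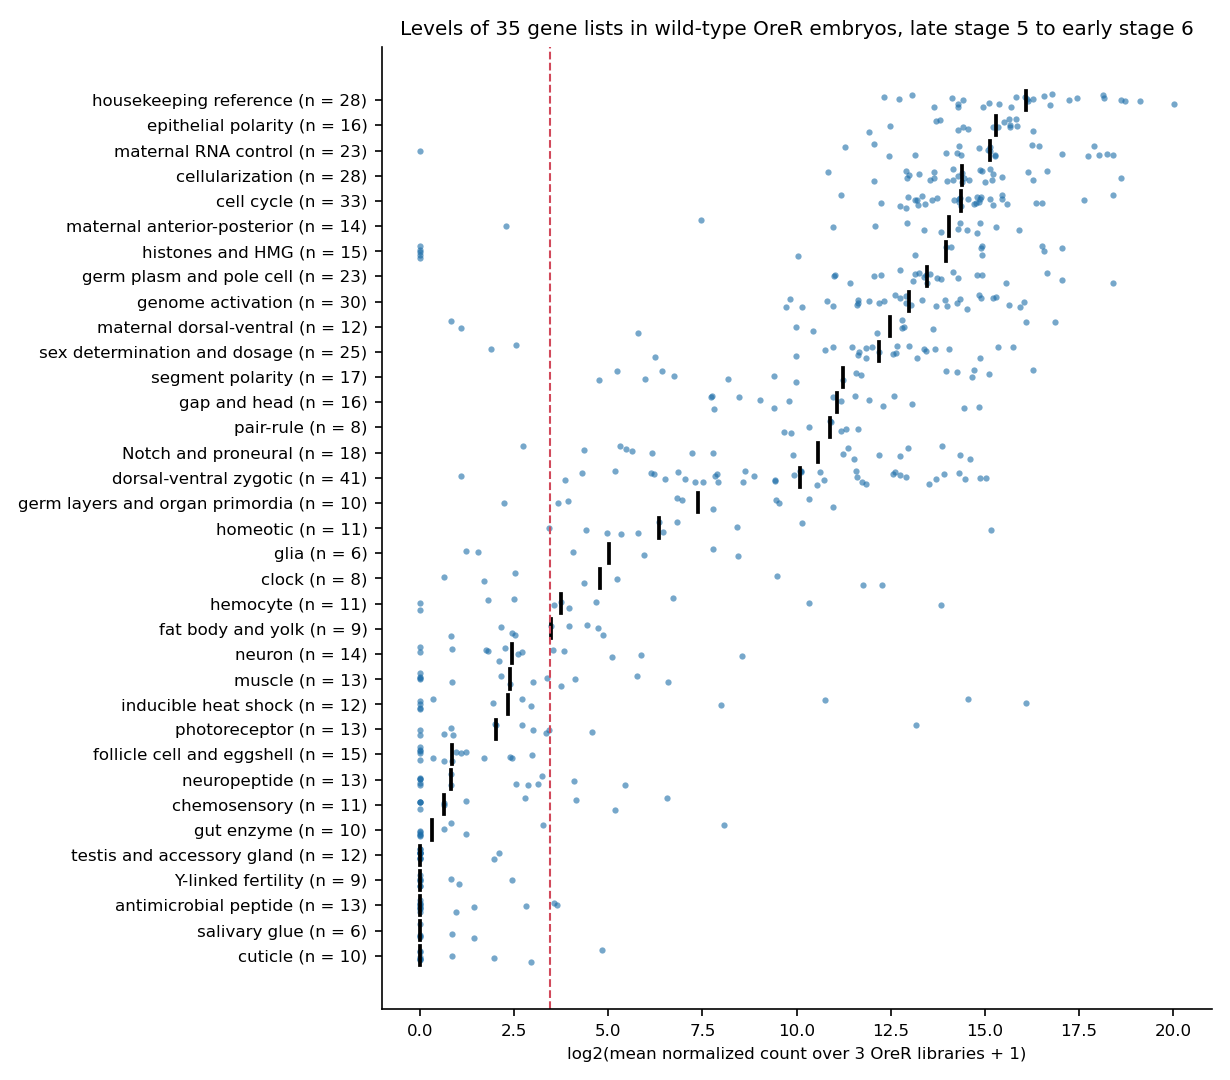
Level of every member of the 35 gene lists, as log2 of the mean normalized count over the 3 OreR libraries plus 1; each point is a gene, the black bar is the list's median and the dashed line marks 10 normalized counts. Levels are not divided by length. Lists are ordered by median, from housekeeping genes at 70109.6 down to testis, Y-linked, antimicrobial, glue and cuticle genes with a median of 0.

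Maternal axis genes were abundant. Of 14 anterior-posterior genes 13 were present, with a median level of 17227 normalized counts. None of the 13 had a highest library 2-fold above its lowest, against 11.9% of present genes but only 0.292% at levels of 10000 to 100000. Their median coefficient of variation, 9.77%, was near the 10.1% of all present genes and above the 7.75% at 10000 to 100000. The anterior determinant bcd stood at 20303, 21666 and 20332, a mean of 20767 ± 778 (SD, n = 3), and the posterior genes osk and nos at 29486, 27777 and 27534 and 11677, 10484 and 9616. These 3 genes varied by 1.07, 1.07 and 1.21-fold between the highest and lowest library. The terminal receptor gene tor was at 19358, 20883 and 19529. Highest of the list by count was pum, a translational repressor that acts with nos, at 50225, 77692 and 55218, with replicate 2 highest. Per kb the order changed, and swa, needed to anchor bcd RNA, led with 14670.2 against 9852 for osk, 8189 for bcd and 5174 for pum. Most of the exon sequence of osk is shared with other genes in the annotation used here, so its level is uncertain. The terminal ligand gene trk was low at 190.5, 173 and 167.

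The dorsal-ventral pathway runs from proteases outside the egg to the receptor Toll and on to the transcription factor Dorsal in the embryo. Tl, the receptor, was the most abundant of its 12 genes at 115579, 137764 and 104082, and cact, the inhibitor that holds Dorsal in the cytoplasm, stood at 71528, 68040.3 and 68179. The gene of Dorsal itself, dl, was lower at 4172, 4952 and 4469, or 704 per kb against 20833 for cact. The intracellular adaptor tub was at 11634, 12639 and 13346 and the ligand gene spz at 6619, 7323 and 7504. None of these 5 genes spread by more than 1.32-fold over the libraries. The gd gene, a protease made in the germ line, was present at 845, 991 and 1220.2, and snk and ea, germ-line proteases named after their values were seen, at 1452, 1299 and 1435 and 7809, 7190.1 and 7212. Of genes known from the follicle cells around the oocyte, the protease gene ndl had 61.1, 52.4 and 50.1 normalized counts, and pip, wbl and tsl, also named afterwards, had means of 0.784, 1.13 and 3.85, all below the level called present.

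Of 23 genes that control maternal RNA 22 were present, with a median of 35702. Beside CycB, me31B, smg and tral, pAbp, the poly(A)-binding protein gene, was at 215524, 228091 and 213861 and Hsp83, a maternal RNA that Smaug marks for decay, at 129473, 141889.8 and 131428. Not1, the scaffold of the deadenylase complex, stood at 76636, 115177 and 73825, and wisp, the cytoplasmic poly(A) polymerase, at 61713, 90664 and 81006. Both were highest in replicate 2, as were 13 of the 22 present members against 29.7% of all present genes. After the median of each gene's exon length class was subtracted, 8 of the 22 were highest in replicate 2 and 10 in replicate 3. Of 8105 present genes with a length, 2344 and 2720 were then highest in these libraries. The kinase gene png, which licenses translation at egg activation, was at 2619.9, 2462 and 2403, or 2239.7 per kb. The Cdc25 phosphatase genes twe and stg were both present, at 29691, 28007 and 30745 and 31086, 37678 and 39307. The remaining gene, cup, a translational repressor, was listed at 0 in all 3 libraries. All of the exon sequence of cup is shared with exons of other genes in the later annotation used here, and the part of this in the 0 was not tested.

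Germ plasm and pole cell genes had no member under 10. All 23 were present, against 53.7% of all genes, with a median of 11325. Their median coefficient of variation was 6.71%, against 7.75% for genes at 10000 to 100000. This 6.71% depended on the normalization. It was 7.67% with TMM factors, 8.10% with equal totals and 8.48% with quantile normalization. The helicase gene vas, a marker of germ cells, stood at 9681, 10689.6 and 8718, and gcl, which promotes pole cell formation, at 28254, 30877 and 33986. The gene pgc, which keeps transcription off in pole cells, was at 11812, 11399 and 12579, and tud, the scaffold of the polar granules, at 8190.1, 10317 and 7619.6. These 4 genes differed by at most 1.35-fold between libraries. The Argonaute gene aub of the piRNA pathway had the widest spread of this list, at 9575, 9300.1 and 15098, with replicate 3 1.62-fold above the lowest library. The germ-line gap junction gene zpg was nearly constant at 11041, 10929.8 and 10998, a coefficient of variation of 0.509%. The lowest member by count, Tre1, a receptor that guides germ cell migration, was at 1923, 2182 and 2061. Since the whole embryo was sequenced, these values do not say how much of each RNA lay in the pole cells.

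Activators of the zygotic genome and the first genes they switch on were all present. The list had 30 genes with a median of 8034. The pioneer factor Zelda, under its older name vfl, stood at 40487, 68959 and 44195, with replicate 2 1.70-fold above replicate 1. Stat92E, the JAK/STAT factor, was at 63561, 62638 and 61974 with hardly any spread. Short early transcripts showed the opposite order of libraries. Z600, also called fruhstart, which pauses mitosis at gastrulation, was at 12223, 5030.2 and 5761, and halo, a regulator of lipid droplet transport, at 23143, 12019.9 and 13615. The early transcript term had 22210.4, 12103 and 13172. In these 3 genes replicate 1 was highest and replicates 2 and 3 lay close together. Replicate 1 was the highest library for 21 of the 30 members, against 41.3% of all present genes. After the median of each gene's length class was subtracted it was highest for 19, against 3041 of 8105 present genes with a length. The epidermal factor grh was the lowest and most spread, at 1344, 818 and 351.

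All 28 cellularization genes found were present, with a median of 21518. None spread 2-fold, against 11.9% of present genes but only 0.292% at levels of 10000 to 100000. Their median coefficient of variation was 8.66%, against 7.75% at those levels. Among the zygotic genes that build the furrow, slam, which sets up the membrane front, was at 127058, 95023 and 88424, and Sry-alpha at 47426, 24173 and 27612. The furrow genes bnk, bottleneck, and nullo stood at 30275, 18775 and 23613 and 8785, 6718 and 7917, and CG34137, also called dunk, at 26247, 15108 and 18213. All 5 were highest in replicate 1 and lowest in replicate 2 or 3, but nullo spread only 1.31-fold against 1.96-fold for Sry-alpha. Exons of Sry-alpha are wholly shared with another gene in the later annotation, so its value is uncertain. The actin regulator tsr, cofilin, was also highest in replicate 1, at 87742, 73841 and 77553, with a smaller range of 1.19-fold. The lowest member by count, sec5, an exocyst subunit, stood at 1761, 1824 and 1879, and RhoGEF2, an activator of Rho1, at 5002, 4746 and 3024.

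All 16 gap and head genes and all 8 pair-rule genes were present. The gap gene hb, which also has a maternal RNA, was highest at 32225, 27768 and 28749.5, and its libraries agreed within 1.16-fold. The central gap gene Kr stood at 8325, 4839 and 5225, gt at 6355, 4343 and 4469 and kni at 4178, 2298 and 2602. The terminal gap genes tll and hkb were at 4996, 3067 and 3547 and 2917, 1524 and 1549.7. For Kr, gt, kni, tll and hkb replicate 1 was highest, above the other libraries by more than those differed from each other. Scarcer genes of the list spread more, with knrl, a relative of kni, at 409, 184 and 81.2 and pdm2, a POU factor, at 148, 407 and 76.4. In pdm2 replicate 2 was the highest library.

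Pair-rule genes had means from 807 to 3157 normalized counts. The primary genes eve, h and run stood at 1562, 1055 and 1243, 2643, 1612 and 1497 and 3133, 3204 and 3134, and ftz at 3247, 2110.0 and 2272. Here run was nearly constant while eve and h were highest in replicate 1. Of the others, odd was at 2841, 1339.6 and 1489, prd at 1159, 640.2 and 621 and slp1 at 2782, 2129 and 2082. The gene opa, a regulator of late pair-rule expression, had the widest range, 1583, 877 and 285, 5.53-fold from replicate 3 to replicate 1. Per kb, slp1 and ftz led at 1636 and 1433 and prd and opa were lowest at 299 and 311. Gap, head and pair-rule lists share slp1 and hold 23 genes together, of which 20 were highest in replicate 1, where 41.3% of all present genes were highest. The median coefficient of variation was 33.5% for gap and head genes and 28.6% for pair-rule genes. Without replicate 1 these medians were 8.45% and 5.22%, so the spread of both lists rested on that library.

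The segment polarity list had 17 genes, all present. Among Wnt pathway genes, arm, beta-catenin, stood at 75971, 94946 and 67232, sgg, the GSK3 kinase, at 35149.9, 36728 and 33089 and Axn at 26204, 30517 and 23144. The ligand wg stood at 349, 332 and 189 and hh at 60.0, 82.0 and 44.2, and the selector en at 56.4, 162 and 38.2, with its neighbour inv at 20.0, 33.8 and 23.9. The Hedgehog pathway factor ci was at 4813, 3868 and 1275, where replicate 3 was 3.77-fold below replicate 1. The Hedgehog receptor gene ptc, named after its values were seen, was at 3318, 2580.2 and 1377, with the same order of libraries. The paired-box gene gsb had 25.9, 76.1 and 7.16 and the Wnt antagonist nkd 784, 898 and 339. Replicate 3 was the lowest library for 14 of the 17 genes, against 30.5% of all present genes. The count was 11 after the median of the length class was subtracted, against 2875 of 8105 present genes with a length.

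Homeotic genes had the lowest median per kb, 14.2 normalized counts, of the gap, pair-rule, segment polarity, homeotic and zygotic dorsal-ventral lists. Among 11 Hox genes and cofactors 10 were present, with a median level of 80.3 normalized counts. The Hox gene Antp stood at 42.3, 239 and 57.3, while Dfd was at 147, 67.7 and 26.3 and Ubx at 48.2, 89.6 and 23.9. Abd-B, Scr and lab were at 21.2, 82.9 and 14.3, 4.70, 71.0 and 14.3 and 11.8, 42.3 and 7.16. Of the other Hox genes, abd-A and pb, both named after their values were seen, had means of 87.4 and 9.76, the second under 10. Their order changed between libraries, since Dfd was above Antp in replicate 1 and below it in replicates 2 and 3. Replicate 2 was the highest library for Antp, Ubx, Abd-B, Scr, lab and abd-A and replicate 1 for Dfd and pb. Exons of other genes share 50.1% of the exon sequence of Antp in the later annotation, so its level is uncertain. The cofactor exd, which is stored maternally, was high and even at 38368, 37328 and 33538. Its partner hth stood at 1409.9, 1559 and 400.0 and the trunk gene tsh at 233, 565 and 230.4. In 9 of the 10 present members the highest library was at least 2-fold above the lowest, against 11.9% of present genes. That share was 53.4% at levels of 10 to 30, 42.2% at 30 to 100 and 27.7% at 100 to 300. Without replicate 2 the count was 3 of 10.

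Zygotic dorsal-ventral genes ranged from receptors to tissue-specific factors. The list had 41 genes, of which 40 were present. The mesoderm genes twi and sna stood at 4913, 2959 and 3053 and 4049, 2546 and 2710.2, both highest in replicate 1. Neurogenic ectoderm genes sog, a BMP antagonist, and rho, a protease that activates EGF ligands, were at 4343, 2496 and 2266 and 1689.8, 828 and 824. On the dorsal side zen was at 7969, 5190.0 and 5503 and the BMP ligand dpp at 1346, 1099 and 907. The pathway's receptor and effector genes put and Mad were far higher and even, at 35356, 33301 and 32215 and 29795, 30119 and 29837. Among scarcer genes the libraries parted. The FGF receptor gene htl was at 367, 272 and 86.0 with replicate 3 lowest, whereas tin, a heart and mesoderm factor, and tup were highest in replicate 2 at 24.7, 192 and 52.5 and 40.0, 155 and 25.1. The amnioserosa gene C15 had 0, 54.1 and 2.39 normalized counts and thus was at 0 in replicate 1. The lowest present member was Dr at 9.41, 23.7 and 7.16, and bap, a visceral mesoderm gene named after its values were seen, had 0, 3.38 and 0.

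Of 18 Notch pathway and early neural genes 17 were present. The ligand Dl and the receptor N stood at 21478, 28851 and 23652 and 16156, 29751 and 16514, and Su(H), their nuclear effector, at 15447, 16164 and 13085. Targets in the Enhancer of split complex were scarce and uneven. E(spl)mgamma-HLH was at 2.35, 193 and 16.7 and E(spl)mdelta-HLH at 2.35, 109.9 and 33.4, with most of their signal in replicate 2. E(spl)m5-HLH was at 90.5, 222 and 131. The neuroblast gene wor had 21.2, 64.3 and 31.0, and ase, a second neuroblast gene and named after its values were seen, had 0, 16.9 and 0. Among organ primordium genes the gut factor fkh was at 1091, 781 and 364, the hemocyte and fat body factor srp at 1458, 1459 and 923, and the tracheal genes btl and vvl at 40.0, 207 and 93.1 and 4.70, 35.5 and 2.39. The endoderm gene GATAe had 0, 30.4 and 4.78. For btl, vvl and GATAe replicate 2 was highest, and for fkh replicate 1.

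Of 25 sex determination and dosage compensation genes 23 were present. The master switch Sxl stood at 4438, 2704 and 2469, and its X-linked activators sisA and os at 2281, 1742 and 1990.3 and 3481, 2339 and 2707. The maternal co-repressor gro was the list's highest gene by count, at 53833, 58428 and 51089. The male-specific dosage factor msl-2 was at 2690.5, 1154 and 1305 and its partner msl-1, which is stored maternally, at 38372, 43161 and 42765. Sxl and msl-2 were highest in replicate 1, with msl-2 2.33-fold above its lowest library, while msl-1 varied 1.12-fold and was lowest there. Of the roX RNAs of the dosage compensation complex, roX1 stood at 23525, 13275 and 13626 and roX2 at 2.35, 3.38 and 2.39, so the first was abundant and the second at the detection limit. The terminal gene dsx was low at 70.6, 82.0 and 70.4. The labels do not give the sex of the embryos.

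Cell cycle genes were abundant, and all 33 were present. After CycB came CycA at 191356, 217758 and 204468 and polo, the mitotic kinase, at 97791, 91501 and 90981. CycE, the S-phase cyclin, was at 37586, 50208 and 45968. Of the mitosis blockers, trbl, tribbles, was highest in replicate 1 at 10208, 6779 and 6883, like Z600. The lowest member was Myt1, an inhibitory kinase, at 2181, 2464 and 2292. The list's median coefficient of variation was 6.45%.

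Histone genes divided by type. The replacement variants His2Av and His3.3B stood at 103103, 87518 and 99015 and 102137, 90503 and 86788, and HmgD, an HMG protein of early embryos, at 149111, 128853 and 129767. The embryonic linker histone BigH1, listed as CG3509, was at 29992, 29539 and 32604. The paralogue HmgZ was far lower and uneven at 1440.5, 1157 and 525. All 5 replication-dependent histones in the list, His1:CG31617, His2A:CG31618, His2B:CG17949, His3:CG31613 and His4:CG31611, were listed at 0. Among 111 such copies in the matrix 110 were at 0, and the remaining copy had a mean of 0.796 (His1:CG33834). These copies are nearly identical and lack a poly(A) tail, and how reads of repeated genes were counted is not given in the sources used here.

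Epithelial polarity genes, which include crb, were all present. Their median was 39854 normalized counts, or 4057 per kb, where 8 of the other lists were higher. The apical determinant crb stood at 13084, 15309.6 and 11662 and its partner sdt at 4024, 4758 and 2806. The junction genes arm and p120ctn were at 75971, 94946 and 67232 and 62113, 55087 and 58499.6, and cno at 48328, 71649 and 54563. The basolateral gene scrib and the apical gene baz were at 34982, 57214 and 33647 and 11276, 19069 and 12941. In scrib, baz and cno replicate 2 was highest, and the list's median exon length of 6.43 kb compared with 2.14 kb over present genes.

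The spread between libraries depended strongly on level. Over all present genes 976 had a highest library at least 2-fold above the lowest, with 1 added to both values. Of these, 475 were highest in replicate 1, 318 in replicate 2 and 183 in replicate 3. The lowest library was replicate 1 for 258, replicate 2 for 203 and replicate 3 for 515. Of all present genes, 41.3% were highest in replicate 1 and 30.5% were lowest in replicate 3. Without replicate 1 the 976 became 484, without replicate 2 they became 643 and without replicate 3 they became 518. Each of these counts had 2 libraries to compare. The median coefficient of variation was 40.8% at levels of 10 to 30, where counting alone gives 25.6%. It was 9.20% at 1000 to 3000 and 8.39% from 100000 up, where counting alone gives 2.36% and 0.274%. The spread of abundant genes was therefore far above counting error.

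**Figure D2:**
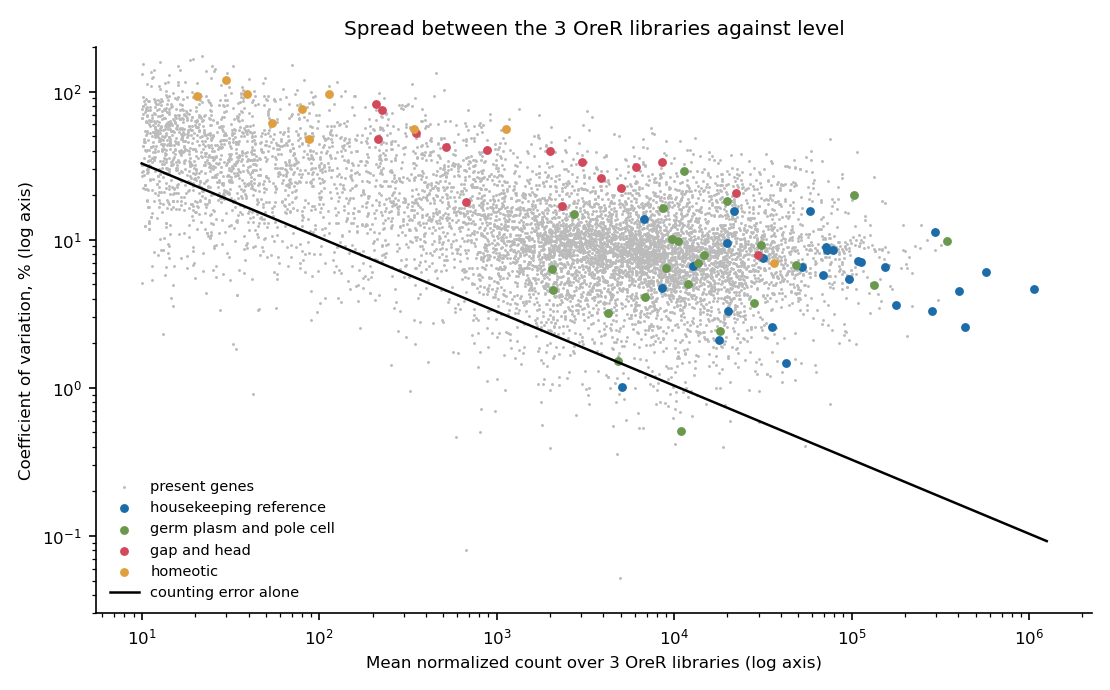
Coefficient of variation over the 3 OreR libraries (%, log axis) against mean normalized count (log axis) for all present genes in grey, with 4 lists in colour and the line that counting error alone gives. Gap and head genes have a median of 33.5%, and germ plasm genes have a median of 6.71%.

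Of 5607 genes with a mean of at least 1000, 56 spread at least 2-fold. Replicate 1 was the highest library for 40 of these 56, against 41.3% of all present genes. The 56 became 21 without replicate 1 and 16 without replicate 3. The largest coefficient of variation was 75.9% for Pka-C3, a protein kinase A catalytic subunit, at 2513, 852 and 660.2. Next came CR41602, annotated as an 18S ribosomal RNA pseudogene, at 1901, 5990.1 and 1773, with the excess in replicate 2. Hsp23, a small heat shock protein gene, was at 1190.0, 899 and 3099 and dpr6, a cell surface immunoglobulin gene, at 644, 836 and 2061, both highest in replicate 3. Only 4 of the 56 genes were highest in replicate 3, and the others were fz2 and CR43837, named after their values were seen. Genes highest in replicate 1 included Pepck, which starts gluconeogenesis, at 5157, 2302 and 1753, egr, the fly TNF, at 3354, 1548 and 1168, and Ptr at 12233, 5918 and 4209. The uncharacterized genes CG15628, CG14915 and CG43725 were also highest there, at 6016, 2881 and 1494, 11997, 5310.1 and 5086 and 7367, 3302 and 3163. The head and eye factor dan and the guidance receptor lea were lowest in replicate 3 at 1442, 1348 and 392 and 1823, 2539 and 793.

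Part of the difference between libraries ran with gene length. Genes with a mean of at least 50 were split into 10 classes of exon length, and each library was compared with the gene's mean on the log2(normalized count + 1) scale. In the class up to 0.5 kb the median difference was 0.12 in replicate 1, -0.13 in replicate 2 and 0.03 in replicate 3. In the class over 12 kb it was -0.21, 0.34 and -0.18. Replicate 2 was thus lowest for short genes and highest for long ones, and its median rose at each step of length over the 106 to 1453 genes of a class. Replicate 2 was the highest library for 3.02% of genes of 0.5 to 1 kb and for 76.1% of those over 12 kb. Long genes with replicate 2 highest included nej, a histone acetyltransferase, Smr, a co-repressor, and kis, a chromatin remodeller, named after their values were seen, with 62489.6, 117124 and 48294, 49309, 86502 and 42305 and 93982, 154006 and 72809 normalized counts. Replicate 2 also had the most reads, and the part of depth in this was not tested.

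**Figure D3:**
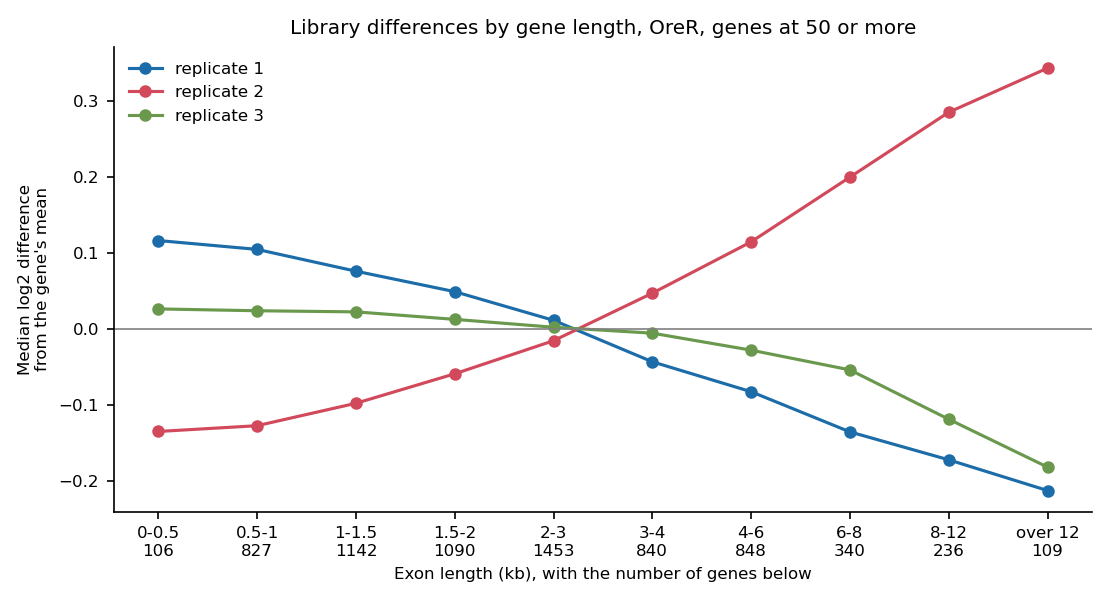
Median log2 difference of each OreR library from the gene's mean, by class of exon length in kb, for genes with a mean of at least 50; the number of genes stands under each class. Replicate 2 runs from -0.13 to 0.34 and replicate 1 from 0.12 to -0.21.

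The library differences of the patterning lists were larger than those of their length classes. For gap and head genes the median log2 difference was 0.50 in replicate 1, -0.16 in replicate 2 and -0.23 in replicate 3, and 0.50, -0.14 and -0.22 after the median of each gene's length class was subtracted. Pair-rule genes had 0.41, -0.18 and -0.22 after this step, and replicate 1 was then highest for 8 of 8. Homeotic genes had -0.27, 0.77 and -0.68, with replicate 2 highest for 7 of 10. By contrast the polarity list, at 0.24 in replicate 2 before the step, had -0.00376 after it. Housekeeping genes highest in replicate 1 went from 22 to 15 of 28. After the step, 3041, 2344 and 2720 of 8105 present genes with a length were highest in replicates 1, 2 and 3. Germ plasm genes had -0.04, 0.01 and -0.01. With 3 libraries and no contrast these are descriptions, and each rests on single libraries.

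**Figure D4:**
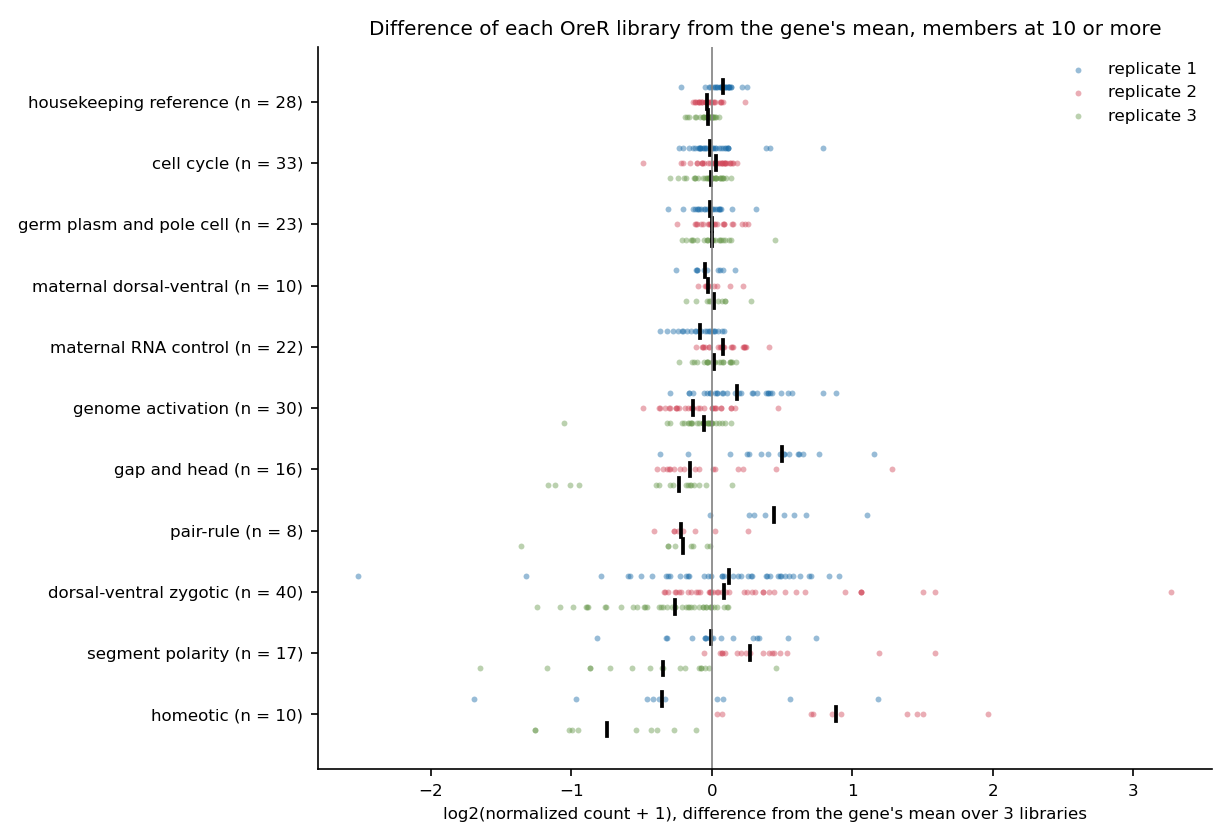
Difference of each OreR library from the gene's mean, in log2(normalized count + 1), for the present members of 11 lists; points are genes, black bars are medians and colours mark the replicates. Gap and pair-rule genes stand to the right in replicate 1, with medians of 0.50 and 0.44, and homeotic genes in replicate 2, with 0.89.

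Most genes of later or adult tissues were under 10. The 16 lists of such tissues held 173 genes, of which 132 were under 10 and 63 were listed at 0, with a median level of 1.35. In the other 19 lists 23 of 353 genes were under 10 and 10 at 0. Of all 15334 genes 7102 were under 10, and 24.5% were listed at 0. No eggshell gene was present among 15, and the chorion genes Cp16, Cp19, Cp36 and Cp38 and the vitelline membrane gene Vm26Ab were at 0. The highest, the chorion gene Cp18, had 10.6, 1.69 and 8.36. Of 12 testis and accessory gland genes 10 were at 0, among them the protamine genes Mst35Ba and Mst35Bb, the meiotic arrest genes can and aly, and Acp70A, the sex peptide. On the Y chromosome the fertility genes kl-2 and kl-3 were at 0 and kl-5 had 2.35, 0.846 and 0. Only fdy of 40 Y-linked genes was present, at 14.1, 11.8 and 21.5, and it was named after its values were seen.

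Of the sensory lists, 2 of 13 photoreceptor and 3 of 11 chemosensory genes were present. The same held for 4 of 13 muscle, 5 of 14 neuron, 2 of 13 neuropeptide and 4 of 6 glia genes. Of all genes 53.7% were present, and among these lists only glia, at 66.7%, lay above that share. The rhodopsin gene ninaE and the channel gene trp were at 0, yet norpA, the phospholipase C of phototransduction, was abundant at 8181, 10047 and 9609.8. The odorant co-receptor Orco was at 0, while Or22a, an odorant receptor, had 116, 86.3 and 75.2. In muscle the light chain gene Mlc1, Mp20 and TpnC73F were at 0 and the myosin gene Mhc had 3.53, 16.1 and 17.9. Act87E, a muscle actin gene, was at 28.2, 195 and 60.9, highest in replicate 2, and reads of actin genes can be shared among near-identical copies. Among neuronal genes elav, the pan-neuronal RNA-binding protein, stood at 590.3, 421 and 117, and the vesicular transporter VGlut and the amine enzyme Ddc were at 0. The synaptic gene brp had 11.8, 3.38 and 16.7. The glial switch gcm was at 35.3, 93.0 and 54.9 and its target repo at 25.9, 9.30 and 11.9. Of the neuropeptides Pdf, ETH, burs, Eh and Fmrf were at 0, and Crz, corazonin, had 69.4, 30.4 and 28.7.

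Of 11 hemocyte genes 7, or 63.6%, were present, and of 9 fat body and yolk genes 5, or 55.6%, against 53.7% of all genes. Fewer were present among gut enzymes, 1 of 10, and antimicrobial peptides, 2 of 13. The scavenger receptor gene crq, known from hemocytes, was abundant and even at 14274, 14771 and 14954. Mature hemocyte genes He and nimC1 were at 0, and Hml had 23.5, 8.46 and 11.9. The phenoloxidase gene proPO59 stood at 108, 85.4 and 122. Among gut enzymes Jon65Ai was at 319.8, 359 and 125, while the amylase gene Amy-p and the proteases alphaTry, Jon25Bi, Jon25Bii and Jon99Ci were at 0. The yolk protein gene Yp1 had 2.35, 0 and 0, Yp3 11.8, 22.0 and 9.55 and the larval serum gene Lsp2 28.2, 0 and 2.39. Fbp1, a fat body receptor, was at 63.5, 13.5 and 7.16, highest in replicate 1. Of 13 antimicrobial peptide genes 8 were at 0, and Drs, drosomycin, had 9.41, 14.4 and 8.36. Salivary glue genes Sgs3, Sgs4, Sgs5 and Sgs7 were at 0, as were the cuticle genes Lcp2, Lcp3 and Lcp4. Clock genes were uneven, with cyc and cwo at 3612, 3291 and 3508 and 3927, 5559 and 5294 and per at 28.2, 23.7 and 57.3.

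Of 12 heat shock genes 4 were present, against 53.7% of all genes, and 3 of the 4 were small chaperones. Hsp27 and Hsp26, known to be made in the ovary, stood at 63651, 64621 and 78972 and 27023, 19218 and 25274. Hsp68, an inducible gene, was at 266, 178 and 322. Of the Hsp70 copies, Hsp70Ab, Hsp70Bb and Hsp70Bbb were at 0 and Hsp70Aa had 0, 0.846 and 0. These copies are near-identical, and how their reads were assigned is not given. Hsp22 was also at 0, and its exons are wholly shared with another gene in the later annotation.

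**Figure D5:**
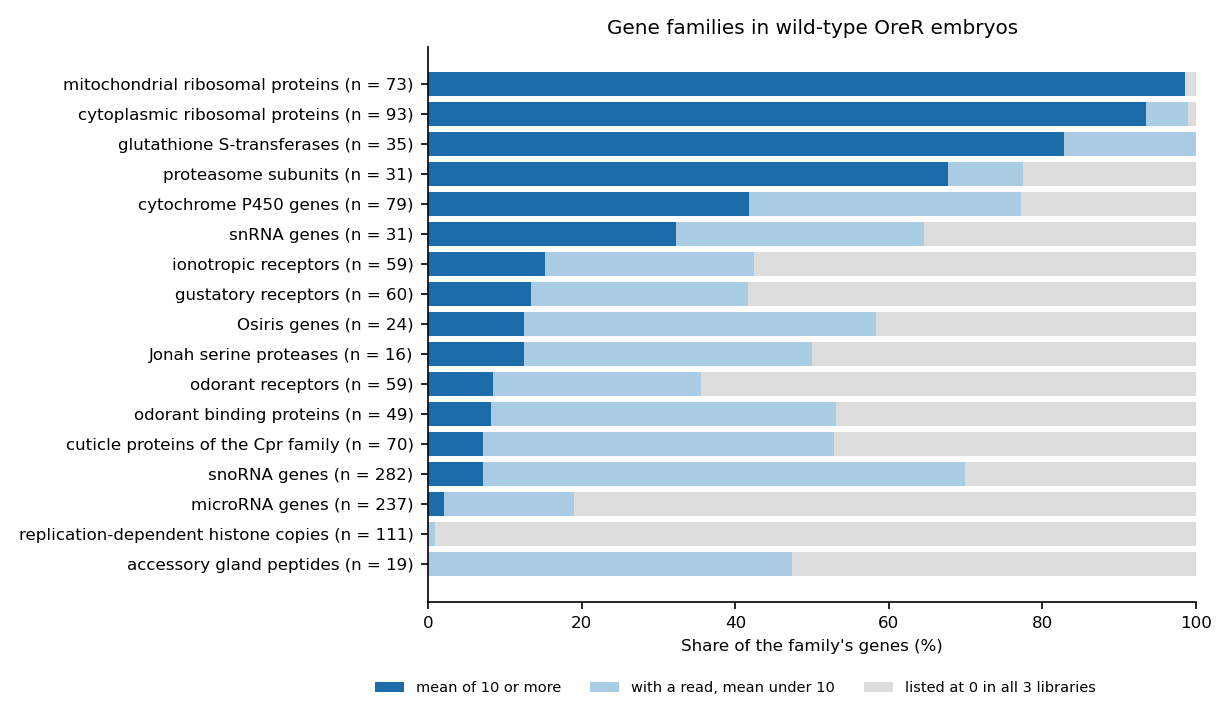
Share of each of 17 gene families, read from gene symbols, that had a mean of 10 or more, a read but a mean under 10, or 0 in all 3 OreR libraries. Mitochondrial ribosomal proteins are present in 72 of 73 genes and odorant receptors in 5 of 59, against 53.7% of all genes.

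Families read from gene symbols after the values were seen are given as a description, beside the 53.7% of all genes that were present. Of 93 cytoplasmic ribosomal protein genes 87 were present, with a median of 99093 normalized counts per kb among them. The 6 below 10 were the paralogues RpS10a, RpL22-like, RpL37b, RpS28-like, RpL10Aa and RpS28a. Mitochondrial ribosomal proteins were present in 72 of 73 genes at 3383 per kb, and the exception, mRpL53, was at 0 with all its exon sequence shared. Odorant receptors were present in 5 of 59 genes, gustatory receptors in 8 of 60 and ionotropic receptors in 9 of 59. Single members were well above the rest of these families. Or43b had 1123, 1329 and 1155 normalized counts and Ir68a 670.3, 348 and 398, and the cuticle gene Cpr67Fb had 489, 553 and 512. Glutathione S-transferases were present in 29 of 35 genes and cytochrome P450 genes in 33 of 79, led by Cyp6v1 at 13135, 16166 and 16859.

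Some genes at 0 were ones that every cell uses. Prosalpha1, a core subunit of the proteasome, LSm-4, a splicing and decay factor, and Rpb4, an RNA polymerase II subunit, were listed at 0, and all 3 were named after their values were seen. All exon sequence of LSm-4 and Rpb4 is shared with other genes in the later annotation, but only 1.75% of that of Prosalpha1. Of 3540 genes at 0 with a gene model 11.6% shared at least 99% of their exon sequence with another gene, against 0.568% of 8105 present genes. A gene listed at 0 is therefore reported as listed at 0 and not as silent. Among present genes of the lists, osk, Mcm7 and Trl shared 84.1%, 81.7% and 77.8%, so their levels are uncertain too.

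Non-coding RNA genes were present less often than genes as a whole. Of 983 genes annotated as non-coding RNA 131 were present, against 53.7% of all genes. Beside roX1 the highest were CR42862 at 13369, 15525 and 11989 and CR43887 at 8728, 4457 and 4446, the second highest in replicate 1, both named after their values were seen. MicroRNA genes were present in 5 of 237 cases and snoRNA genes in 20 of 282, with median exon lengths of 0.09 and 0.14 kb among the present ones. How well the libraries capture such short RNAs was not tested, so these counts do not say how many the embryo holds.

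By chromosome arm, arm 3R gave the largest share of normalized counts, 23.4% ± 0.0608 (SD, n = 3), and the X gave 16.8% ± 0.483. Arm 3R also held the most genes, 3605 of 15334, and the X held 2310. Chromosome 4, the smallest, gave 1.89% ± 0.0714, with 83 of its 92 genes present, against 53.7% of all genes. Its median present gene was at 3066 normalized counts, against 3382 on 3R. Per kb the medians were 587 on chromosome 4 and 1639 on 3R. The Y gave almost nothing, with fdy as its single present gene.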

How the data were processed

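RNA from the 3 OreR libraries was made into TruSeq v2 libraries, per the labels. The tools STAR, Cuffdiff and Cufflinks 2.1.1 and the build dm3 are listed in the submitters' processing notes with no order; the matrix is named for featureCounts, and annotation and counting settings are not given there. The deposited signal values are read counts per gene over a size factor, from the values themselves: multiples of what 1 read is worth accounted for 100% of them within 0.001 of a read, so whole reads could be recovered. There is 1 group and no contrast, so levels, ranges, SDs and counts are given with no test between groups; a chi-square statistic was used only to look for a library deposited more than once. Gene lengths, names and arms came from the Ensembl BDGP6.54 annotation, release 115, which is later than dm3, so no positions are given. Of 15334 genes 11817 were matched by symbol and 3108 through synonyms, which left 409. The 35 lists held 557 symbols, of which 553 were found (Sep1, Sep2, dec-1 and Ng1 were not analysed here). Members and lists were chosen with earlier results of these data known. Named genes are the 30 most abundant, key genes of the lists, and, per list, the 3 highest, the lowest present, up to 4 most spread and those at 0, with the 15 largest and 10 smallest coefficients of variation at a mean of at least 1000. Other names were chosen after their values were seen. TMM factors came from edgeR 4.0.16 in R 4.3.3, used as an alternative. Scripts ran in Python 3.11.15 and were tested on simulated data. Without strand information, per the labels' kit, overlapping genes cannot be told apart. The authors' tables of comparisons with obe were not used, and no sequences are printed.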

Additional observations from a re-analysis of the deposited data

How the results depend on the processing

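Alternatives for the summary results changed these values. Per kb of exon, the top 10 genes took 6.63% and the top 100 took 30.2%, against 5.13% and 19.6%. Of 35 list medians 20 were above that of all genes, and 12 of 31 when members and genes under 10 were left out, where 4 lists had no member. The median coefficient of variation, 10.1%, became 14.1% with a minimum mean of 1 and 9.10% with 50, and ranged from 8.39% to 10.2% without 1 replicate. The 976 genes spread at least 2-fold became 2854 with a minimum of 1, 403 with 50, 1983 at a fold of 1.5 and 246 at 4, and ranged from 484 to 643 without 1 replicate. The 155 list members under 10 became 96 under 1. Other counts stayed within 1.5-fold of the reported ones. The 8232 present genes ranged from 7094 to 10576 over minimums of 1 to 50. TMM factors, equal totals and quantile normalization gave 958 to 974 genes spread 2-fold. TMM factors and equal totals moved no list median by more than the SD of its libraries. Alternatives added after seeing the data left gap, head and pair-rule genes highest in replicate 1 at 20 or 21 of 23, homeotic genes highest in replicate 2 at 7 to 9 of 10, segment polarity genes lowest in replicate 3 at 11 to 13 of 17, and housekeeping genes highest in replicate 1 at 15 to 23 of 28. Also added afterwards, leaving out 1 replicate gave 3 to 9 homeotic genes spread 2-fold, against 9 of 10, and 16 to 45 genes with a mean of at least 1000, against 56. The median coefficient of variation of gap and head genes, 33.5%, ranged from 8.45% to 35.6% and that of pair-rule genes, 28.6%, from 5.22% to 32.1%, with the lowest values without replicate 1. No paired analysis was possible because 1 group was described and no groups were compared. Depth limits genes under 10 normalized counts, where a library holds fewer than 11.8 reads.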
